A study of Mus musculus with 4 samples.

Results

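Small RNAs of the H/ACA and Cajal body classes were compared between the sciatic nerves of HSF V30M and HSF WT mice. Members were the genes whose symbol starts with Snora or Scarna in the authors' deposited table, and there were 51 of them among 50593 genes, 41 Snora and 10 Scarna. HSF V30M mice carried a human TTR V30M transgene and lacked endogenous Ttr. HSF WT mice carried no transgene, and mice of both groups had a heterozygous deletion of Hsf1. All mice were 6 months old, of strain 129S1/SvImJ by the labels and of Sv/129 background by the methods, and the promoter of the transgene is not given in the sources used here. The labels name 2 samples per group, and the methods do not say whether their number of animals is per group. Libraries were made from total RNA of the nerve through a double-stranded cDNA kit, which keeps no mark of the strand, and were sequenced by Ion Torrent chemistry. The methods name RNeasy Mini columns for the isolation of the RNA. How these columns recover RNAs as short as the members, of median length 133 bases, was not tested. The reads were aligned to GRCm38, the genome of C57BL/6J mice, and Cuffdiff gave 1 value per gene and group in FPKM (fragments per kilobase of transcript, scaled to library size). The table gives 1 value per group, without a spread between mice, so no test was made and differences are given as a description. Libraries could be told apart only for some genes of low value, described below.

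H/ACA RNAs fold into hairpins joined by a hinge, end in a short tail, and guide the conversion of uridine to pseudouridine by a particle whose enzyme is dyskerin, the product of Dkc1. Most act in the nucleolus on ribosomal RNA. Cajal body RNAs carry a signal that retains them in the Cajal body, where they direct the modification of spliceosomal snRNAs, and they may be of H/ACA type, of C/D type or of both. In mammals most of them are cut from introns of other genes, called host genes.

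The sequences of several gene models are shown because the values below turn on them. They are Snora69 and Snora2b, with the highest and the lowest Snora ratio, the member of highest mean FPKM, the near-identical pair Snora73a and Snora73b, and some Cajal body RNAs. They were read from the GENCODE M21 transcripts of GRCm38, 5′ to 3′, and the capitals mark the ANANNA nearest the middle (the H box motif of the hinge) and the ACA of the tail.
Snora69, chrX:37082912-37083042, minus strand: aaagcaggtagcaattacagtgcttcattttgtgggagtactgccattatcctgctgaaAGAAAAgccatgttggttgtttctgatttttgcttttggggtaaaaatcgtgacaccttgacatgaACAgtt
Snora7a, chr6:115807975-115808114, minus strand: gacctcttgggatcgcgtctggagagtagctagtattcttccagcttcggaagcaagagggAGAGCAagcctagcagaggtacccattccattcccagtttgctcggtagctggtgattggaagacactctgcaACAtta
Snora73a, chr4:132352775-132352979, minus strand: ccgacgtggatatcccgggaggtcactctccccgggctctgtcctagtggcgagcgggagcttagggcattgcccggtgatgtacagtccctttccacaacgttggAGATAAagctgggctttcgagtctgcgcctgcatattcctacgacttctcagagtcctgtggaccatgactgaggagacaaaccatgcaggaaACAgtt
Snora73b, chr4:132352322-132352526, minus strand: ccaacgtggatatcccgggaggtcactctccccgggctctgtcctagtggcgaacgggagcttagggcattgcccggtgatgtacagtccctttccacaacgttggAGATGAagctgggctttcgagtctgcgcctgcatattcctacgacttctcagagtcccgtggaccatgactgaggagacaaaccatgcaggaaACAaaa
Snora2b, chr15:98526346-98526482, minus strand: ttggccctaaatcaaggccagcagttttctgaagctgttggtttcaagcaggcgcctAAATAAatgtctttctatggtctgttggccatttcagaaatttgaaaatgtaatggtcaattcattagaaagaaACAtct
Scarna8, chr4:86586453-86586583, minus strand: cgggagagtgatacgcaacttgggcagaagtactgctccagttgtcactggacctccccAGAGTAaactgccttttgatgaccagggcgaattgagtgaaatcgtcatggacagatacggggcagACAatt
Scarna3a, chr1:159340283-159340422, plus strand: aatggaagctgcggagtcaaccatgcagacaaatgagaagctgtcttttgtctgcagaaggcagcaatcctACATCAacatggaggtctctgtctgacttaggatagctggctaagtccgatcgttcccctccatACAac
Scarna3b (139 bases), chr12:80391613-80391751, minus strand: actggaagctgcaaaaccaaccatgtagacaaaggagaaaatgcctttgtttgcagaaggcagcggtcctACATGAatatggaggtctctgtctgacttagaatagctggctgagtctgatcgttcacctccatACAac

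An ANANNA starting at 30 to 60% of the length together with an ACA in the last 10 bases was found in 37 of 41 Snora sequences, or 90.2%. The same pair of motifs was in 1 of 99 Snord genes, which encode the C/D class, and in 38 of 775 other small RNA genes of 120 to 210 bases, or 4.90%. An ANANNA anywhere in the sequence was common in each of these classes, in 41 of 41 Snora and 87 of 99 Snord genes. The ACA stood exactly 3 bases before the end in 34 of 41 Snora genes and in 0 of 99 Snord genes. TGAG, the letters of the Cajal body signal, occurred in 9 of 10 Scarna and 18 of 41 Snora genes, but also in 82 of 99 Snord genes. NTGATGA, the C box motif, was in 6 of 10 Scarna genes and in 0 of 41 Snora genes, beside 75 of 99 Snord genes. CTGA, the D box motif, was in 9 of 10 Scarna, 22 of 41 Snora and 99 of 99 Snord genes. The Snora symbols therefore went with H/ACA letters, and the Scarna symbols with a mixture of both types.

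Of the 51 members, 49 had the status OK and 2, Snora19 and Snora35, had the status NOTEST and were listed at 0 in both groups. The other 49 passed a minimum mean FPKM of 1. Ratios were taken as log2((HSF V30M + 1)/(HSF WT + 1)). The ratio was above 0 for 38 of these 49 members, or 77.6%, and below 0 for 11. It was above 0 for 50.4% of all genes of mean 1 or more and for 57.6% of the other annotated small RNA genes. Among Snord genes of mean 1 or more it was above 0 for 61 of 78, a share close to that of the members. It was 1 or more, a fold of 2, for 22 of 49, or 44.9%. Among all 15620 genes of mean 1 or more the share was 3.98%, and among the 781 other small RNA genes it was 37.8%. It was -1 or less for 2 of 49 members, or 4.08%, beside 3.94% of all genes and 26.8% of the other small RNA genes. These counts take each gene model by itself. The longer Scarna3b model, listed at 0 in HSF WT, was among the 22, and the shorter overlapping model was 1 of the 2. Summed over both models the ratio was 0.877, as described below. Both overlapping models of Snora16a were among the 22. So were Scarna10 and Scarna3a, with ratios of 1.56 and 1.79 when summed with an overlapping model. Many of the other small RNA genes stand on a few fragments, which alone can give a fold of 2 in either direction. With at least 10 fragments in the mean of the groups, a limit chosen after seeing the data, 21 of 42 members were higher at a fold of 2 and 0 lower, beside 28.0% higher and 8.23% lower among 243 other small RNA genes. Among the 21, Snora69, Snora20, Snora41 and the 137-base model of Snora16a reached this limit only through HSF V30M, with 3.22 to 6.19 fragments in HSF WT. The limit thus kept members because they were high in HSF V30M, and no conclusion is drawn from the counts or medians at it. In the C/D class, the Snord genes, the shares at this limit were 35.1% and 7.02% of 57 genes, and 39.7% and 7.69% of 78 genes at a mean of 1 or more. The comparison of shares therefore depends on this limit and on the class beside it, and it was not tested. The median log2 ratio was 0.78 over 39 Snora and 0.65 over 10 Scarna members, while that of all genes of mean 1 or more was 0.00297. With at least 10 fragments the medians were 0.89 over 35 Snora, 1.01 over 7 Scarna and 0.58 over 57 Snord genes. Snord genes of mean 1 or more had a median of 0.68 over 78 genes. The 243 small nucleolar or Cajal body RNA genes with another symbol had a median of 0.71. At a fold of 2, 41.2% of them were higher and 20.2% lower, and 29.9% and 6.54% of the 107 with at least 10 fragments. The 193 snRNA genes of mean 1 or more had a median of 0.03. Just inside the fold of 2 lay Snora23, with FPKM values of 612 (HSF V30M) and 305.2 (HSF WT). Just outside lay Snora62, with 553 and 297.

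**Figure D1:**
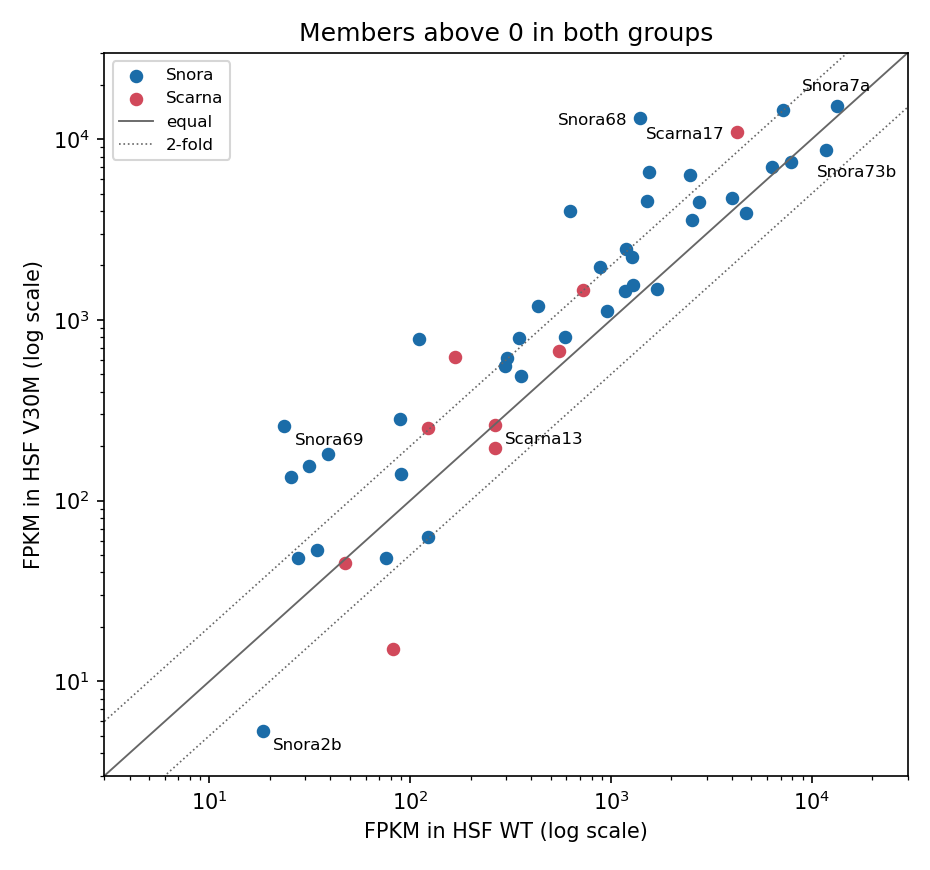
FPKM in HSF V30M against FPKM in HSF WT, both on log scales, for members above 0 in both groups, with lines for equal values and for a fold of 2. Snora68 and Snora69 lie above the upper dotted line and Snora2b below the lower one, whereas the abundant Snora7a and Snora73b lie between them.

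The depth behind these values was read from the values themselves, because most members are shorter than the fragments that Cufflinks assumes. For short genes with 1 exon and a locus of their own, FPKM times the effective length under the default fragment model (mean 200 bases, SD 80) fell on whole combinations of 2 constants per group, 1 for each library. This held, within the rounding of the table plus 1e-05 of the value, for 172 of 176 readable values in HSF V30M and 160 of 166 in HSF WT. Among short genes that share a locus with another gene it held for 353 of 487 and 307 of 525. One fragment on a gene of 131 bases was worth an FPKM of 5.18 or 6.12 in HSF V30M and of 6.39 or 8.61 in HSF WT, depending on the library. On a gene of 414 bases it was worth 0.182 to 0.215 in HSF V30M. FPKM levels of members of unlike length are therefore not on a common footing, and a large FPKM of a short member can rest on few fragments. The number of fragments given below is the midpoint between the readings for the 2 libraries, and it covers counting only. The counting intervals below likewise leave out the spread between libraries of a group. They also leave out the division of fragments between genes that share a locus, as most members do. An interval that excludes 1 therefore does not tell the groups apart. Of the 49 members, 11 had under 10 fragments in at least 1 group.

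**Figure D2:**
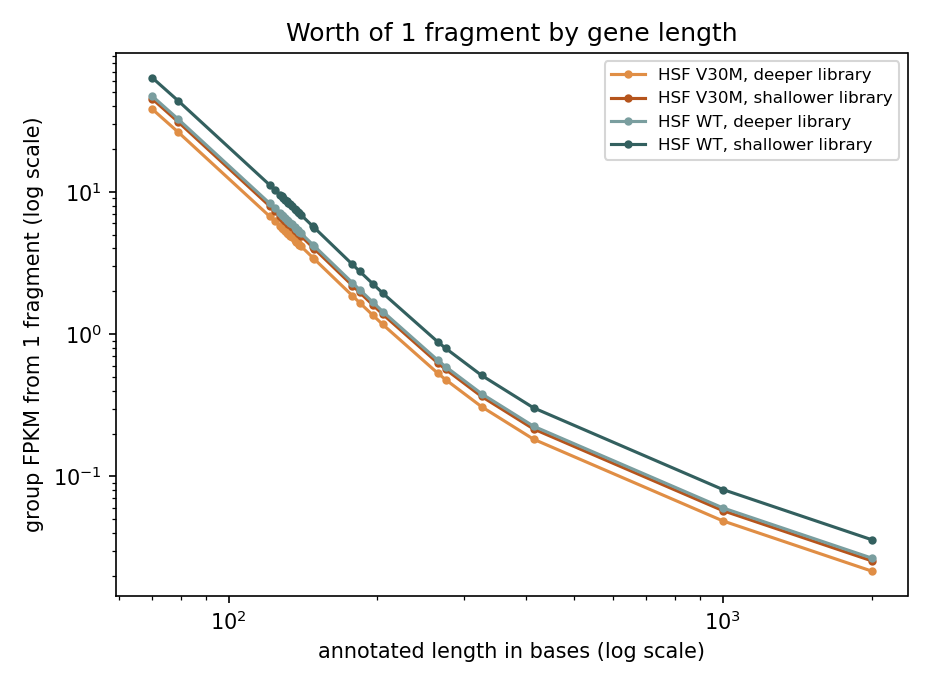
Group FPKM contributed by 1 fragment against annotated length, both on log scales, for the deeper and the shallower library of each group at the lengths of the members and at 1000 and 2000 bases. The worth of 1 fragment falls steeply with length, from 38.2 at 70 bases to 0.182 at 414 bases in the deeper HSF V30M library.

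Among Snora members with a fragment number above 10 in both groups, Snora68 had the highest ratio. It had FPKM values of 13031 (HSF V30M) and 1392 (HSF WT), a log2 ratio of 3.23. Its linear ratio was 9.36, with an exact 95% counting interval of 8.07 to 10.9. Snora15, in Cct6a, had 782 and 111. Snora26, in the noncoding gene Dancr, had 3996 and 622. Snora15 had 131 bases, near the Snora median of 133, and Snora26, with 121, was the shortest Snora member. Their host genes had log2 ratios of -0.20 and -1.20.

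The highest Snora ratio of all, a log2 value of 3.40, belonged to Snora69 in the ribosomal protein gene Rpl39, with FPKM values of 259 (HSF V30M) and 23.6 (HSF WT). The HSF WT value stood for 3 fragments, 1 in the deeper and 2 in the shallower library. The linear ratio, 10.96, had a counting interval of 3.52 to 55.1. Snora20, in Tcp1, had 135 and 25.5, and the 21 fragments in HSF V30M were divided into 4 from the deeper and 17 from the shallower library. Snora41, in Eef1b2, had 156 and 31.4, with 12 and 16 fragments in the libraries of HSF V30M and 1 and 3 in those of HSF WT. The low HSF WT counts leave the size of these ratios open to a wide interval, from 1.59 to 27.6 for Snora20 and from 1.74 to 19.4 for Snora41. For Snora20 the HSF V30M libraries also differed, with an FPKM of 44.8 in the deeper and 225 in the shallower. The deeper library alone lay less than a fold of 2 above the HSF WT value of 25.5.

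The members of highest FPKM covered a wide range of ratios. Snora7a, a guide for 28S ribosomal RNA hosted by Rpl32, had the highest mean FPKM, with FPKM values of 15261 (HSF V30M) and 13348 (HSF WT). Snora57 had 14441 and 7153, a log2 ratio of 1.01, and has no annotated host on its strand. Snora47, in Zbed3, had 6993 and 6325. Snora81, in Eif4a2, had 6374 and 2485. Among the 9 members with a mean of 1000 fragments or more the median log2 ratio was 0.23, with 3 higher and 0 lower at a fold of 2. Among the 22 members with 100 to under 1000 fragments it was 0.85, with 10 higher and 0 lower. Among the 18 with under 100 it was 0.99, with 9 higher and 2 lower and a range from -2.37 to 5.32. Of all genes of mean 1 or more, 3.98% were higher and 3.94% lower at this fold. Across the 49 members Spearman's rho between the log2 ratio and mean FPKM was -0.00153. Summed over members, FPKM times effective length in kilobases came to 1730.0 (HSF V30M) and 1313 (HSF WT), a ratio of 1.32. Snora73b, Snora73a and Snora7a, the 3 members highest on this scale over both groups, contributed 34.1% (HSF V30M) and 49.4% (HSF WT).

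Snora73a and Snora73b, also known as U17 or E1, act in the cleavage of the ribosomal RNA precursor and not as guides of pseudouridine. They lie in the overlapping annotations of Rcc1 and Snhg3, and their sequences were 96.6% identical, so that reads may be divided between them uncertainly. Snora73a had FPKM values of 4705 (HSF V30M) and 4024 (HSF WT). Snora73b had 8716 and 11718, a log2 ratio of -0.43 and a counting interval of the linear ratio of 0.719 to 0.769. Summed over the pair, FPKM times effective length had a ratio of 0.853. The opposite directions within the pair may depend on how reads were divided, and the ratios of both genes were small beside those of Snora68 or Snora15.

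Of the 11 lower members, those with the lowest ratios rested on few fragments. Snora2b, in Kansl2, had FPKM values of 5.27 (HSF V30M) and 18.4 (HSF WT). These were 1 fragment against 3, and the linear ratio of 0.286 had a counting interval of 0.00545 to 3.56. Snora34, in the same host, had 141 and 90.2, with an interval of 0.814 to 3.12. Snora33, in Rps12, had 63.1 and 122, and Snora75, in the nucleolin gene Ncl, had 48.1 and 76.1. The counting intervals of their linear ratios included 1, at 0.217 to 1.19 for Snora33 and 0.231 to 1.68 for Snora75. Snora28, in Eif5, had 3897 and 4726, with an interval below 1, at 0.735 to 0.925. Snora52, in Rplp2, had 1491 and 1698, with 0.743 to 1.04.

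Cajal body RNAs were mixed. Scarna8, an H/ACA guide for U2 snRNA hosted by Haus6, had FPKM values of 622 (HSF V30M) and 167 (HSF WT), with 10 and 12 fragments in the libraries of HSF WT. Scarna17, of C/D type and with a locus of its own, had 10912 and 4231 over an annotated length of 79 bases. Scarna10, which combines both types and guides U5 snRNA, had 252 and 122. It overlaps another annotated small RNA, and FPKM times effective length, summed over both models, had a ratio of 1.56. Scarna3a, in Cop1, had 1458 and 725. It overlaps an annotated microRNA gene, and FPKM times effective length, summed over both models, had a ratio of 1.79. These 4 were at a fold of 2 or more by their own models, but Scarna10 and Scarna3a were not when summed with the overlapping model. Scarna2, of C/D type and with a locus of its own, had 671 and 548. Scarna13, in Snhg10, had 262 and 264, a log2 ratio of -0.01. Scarna6, of mixed type and hosted by Atg16l1, had 195 and 264, with a counting interval of the linear ratio of 0.634 to 0.859.

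The remaining Scarna models rested on few fragments or on overlapping models. Scarna3b was annotated as overlapping models of 139 and 124 bases in Dcaf5. The longer stood at an FPKM of 39.1 in the HSF V30M group and was listed at 0 in HSF WT, while the shorter had 15.1 and 82.3. These are the largest rise and the largest fall of the class, and they come from the same place: summed over both models, FPKM times effective length had a ratio of 0.877 between the groups, and with an overlapping microRNA gene added the ratio was 1.002. Scarna9, annotated with 70 bases in Cep295, had 45.1 in HSF V30M, which was 1 fragment from the shallower library. Its HSF WT value of 47.2 was near the worth of 1 fragment in the deeper library, but was not read as whole fragments within the tolerance. Snora16a also has overlapping models, of 137 and 136 bases, with 182 and 39.2 for the longer and 4532 and 1506 for the shorter, and a summed ratio of 3.05.

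An annotated host on the same strand held 46 of the 51 members, 36 of them in protein-coding genes. The 39 host genes of mean 1 or more had a median log2 ratio of -0.11, or -0.06 with a minimum mean of 5, and 0 were higher and 1, Dancr, lower at a fold of 2. Of protein-coding genes of mean 1 or more, 1.36% were higher and 1.36% lower, and of all genes 3.98% and 3.94%. The host counts lie near these shares. The 11 ribosomal protein hosts had a median of -0.21, from -0.52 for Rpl23 to 0.79 for Rps2. For 42 members of mean 1 or more with a host value, the log2 ratio of the member was above that of its most abundant host in 31 and below it in 11, with a median difference of 1.06. As most host ratios were near 0, this in large part restates that most members were above 0. Snora73a and Snora73b were below Snhg3 by 0.45 and 1.11, but above Rcc1, their other host, by 0.82 and 0.17. The overlapping Scarna3b models count on both sides. No such count is given here for Snord genes and their hosts. Across these 42 members, which share libraries and in part hosts and are not independent, Spearman's rho between member and host ratios was -0.17. Members of the same host also differed among themselves. In Snhg12, whose log2 ratio was 0.40, Snora44 had FPKM values of 6609 (HSF V30M) and 1552 (HSF WT), while Snora61 had 7438 and 7866. Of the members, 24 overlap an exon of at least 1 annotated host transcript, and 48 share their locus in the table with another gene, so that fragments may be divided between member and host.

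**Figure D3:**
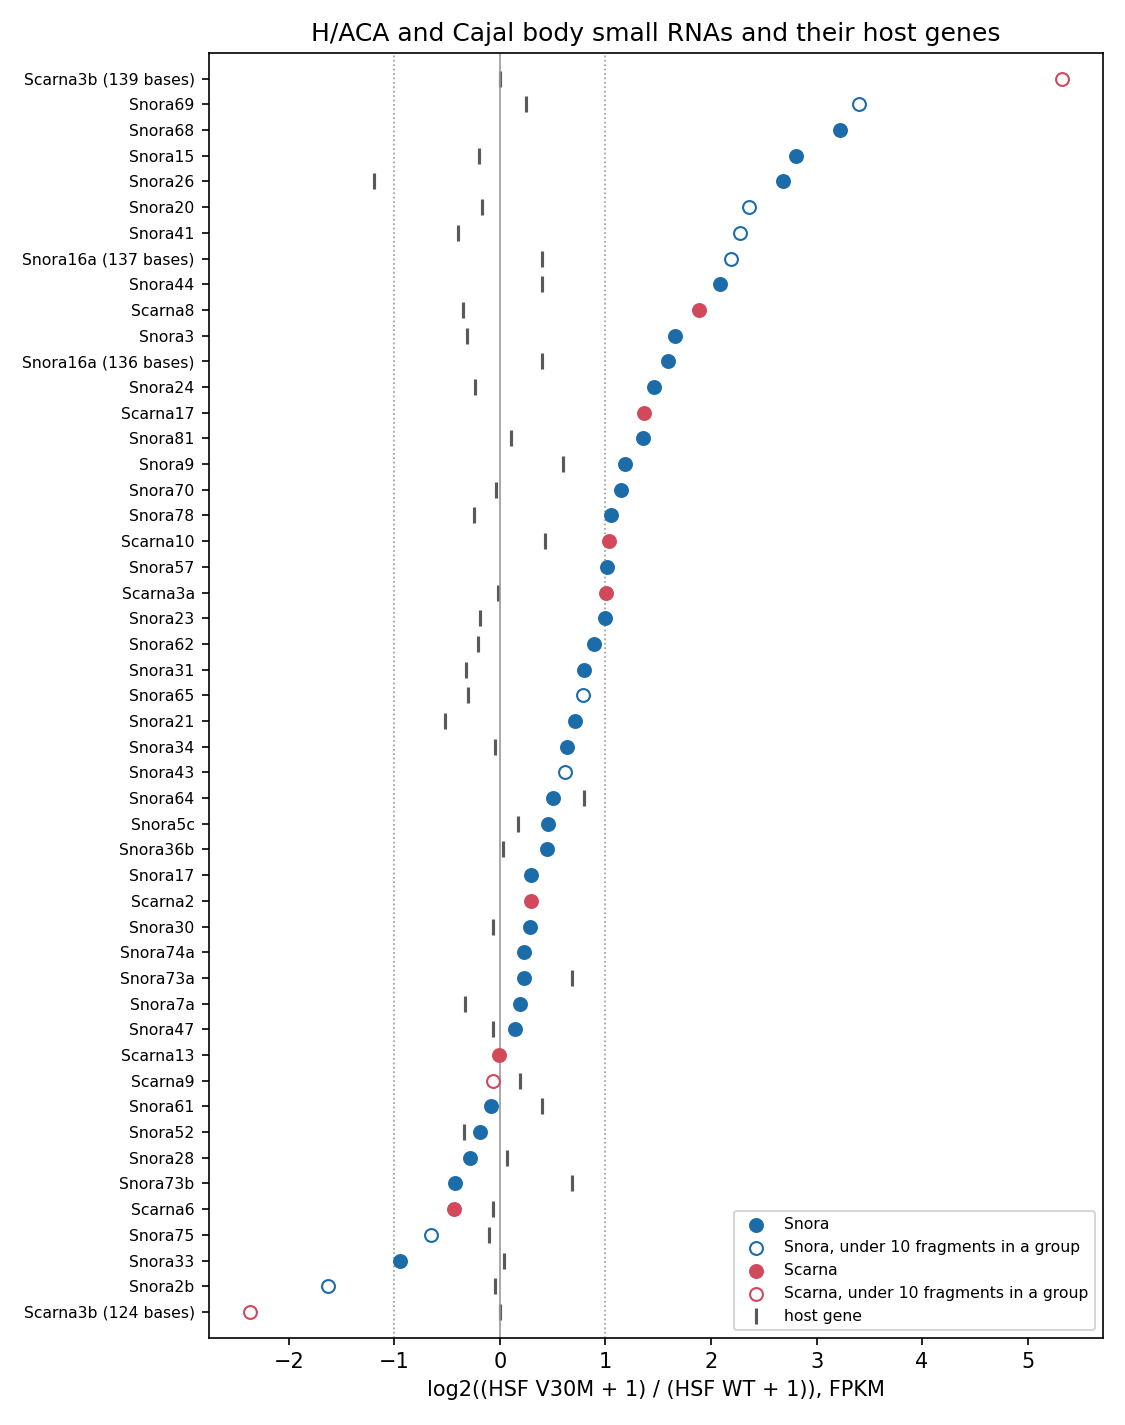
Log2 ratio between the groups, positive where HSF V30M was higher, for the 49 members of mean FPKM 1 or more, filled where both groups had at least 10 fragments and open where 1 had fewer, with the ratio of the most abundant host gene as a grey bar for members whose host is shown. Of the members, 22 lie at or beyond the dotted line at 1, and the host genes lie between -1.20 and 0.79.

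Genes for the proteins of these particles went in both directions. Of 23 genes of mean 1 or more from the lists of H/ACA core, H/ACA assembly, telomerase and Cajal body genes, 9 were higher and 14 lower, with a median log2 ratio of -0.08, and 0 passed a fold of 1.5 in either direction on this scale, beside 10.3% of the 12715 protein-coding genes of mean 1 or more. With a pseudocount of 0.1, tried after the values were seen, 2 of the 23 passed it, beside 14.5% of protein-coding genes. These were Gemin4, with FPKM values of 1.34 (HSF V30M) and 0.689 (HSF WT), and Shq1, with 1.78 and 2.73. Dkc1, the pseudouridine synthase, had FPKM values of 7.54 (HSF V30M) and 11.2 (HSF WT). Nop10 had 14.0 and 18.5, Nhp2 12.7 and 10.04, and Gar1 21.5 and 16.6, these being the other core proteins. The telomerase genes Terc and Tert were under a mean of 1. Of the 4 core proteins of the C/D class, 2 were higher and 2 lower, with a median of -0.09.

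The libraries within a group also differed in small nucleolar and Cajal body RNAs. For 143 small nucleolar and Cajal body RNA genes, all of low value, the whole fragments of each library could be read in both groups or the gene was at 0 in 1 of them. Only 2 of these genes, Snora2b and Snora41, are members, so the values below describe the wider class. The table does not say from which mouse a library came, and levels assume that the group value is the mean of its libraries. Summed over these genes, the level, as FPKM times effective length in kilobases, was 34.1 in the deeper and 50.3 in the shallower library of HSF V30M. In HSF WT it was 19.3 in the deeper and 37.3 in the shallower library. The shallower HSF WT library thus lay above the deeper HSF V30M library, and the groups overlapped. The difference between libraries was 1.47-fold within HSF V30M and 1.94-fold within HSF WT, beside 1.49-fold between the groups. For 153 snRNA genes read the same way the levels were 18.4 and 12.9 in HSF V30M and 21.1 and 18.4 in HSF WT. For 67 microRNA genes they were 3.58 and 5.14 in HSF V30M and 4.41 and 5.17 in HSF WT, so the shallower library was also higher there. For 100 genes of the type misc_RNA they were 7.23 and 6.06 in HSF V30M and 8.06 and 8.27 in HSF WT. Only 18 of the small nucleolar genes had a locus of their own, and they held 5 and 17 fragments in HSF V30M and 9 and 6 in HSF WT. Their levels were 0.389 and 1.56 in HSF V30M and 0.864 and 0.775 in HSF WT. On these few fragments the order of the HSF WT libraries was thus the reverse of that over the 143 genes. The part of this difference between libraries in the ratios of the members was not tested.

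**Figure D4:**
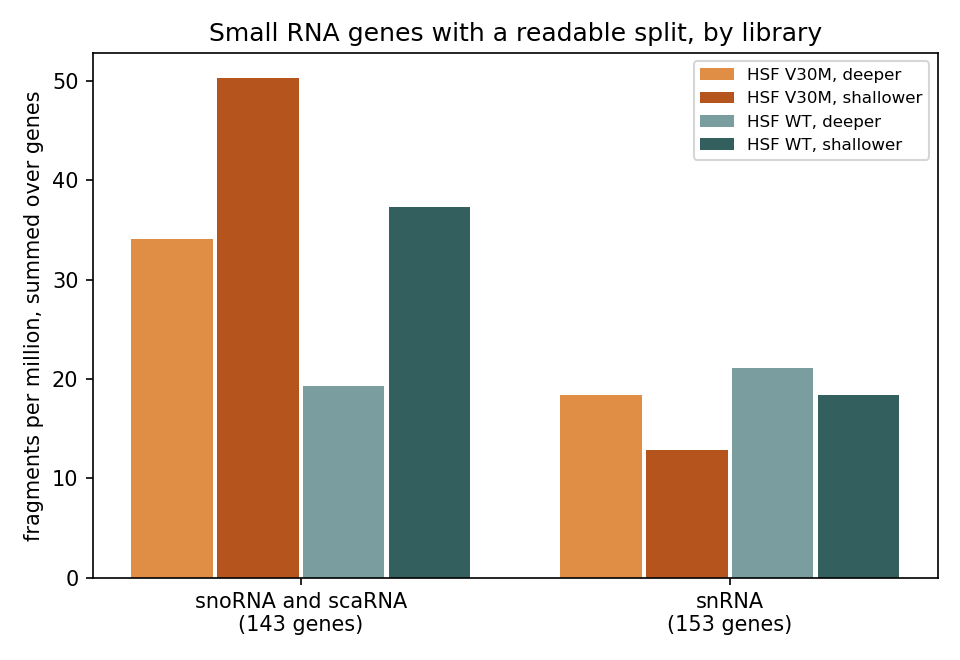
FPKM times effective length in kilobases (fragments scaled to library size), summed over small RNA genes whose fragments could be read by library, as bars for the deeper and shallower library of each group. For small nucleolar and Cajal body RNAs the shallower HSF WT library (37.3) lies above the deeper HSF V30M library (34.1).

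Markers of the cells in the tissue were read from the same values. The labelled tissue was matched by its Schwann cell markers, of which 7 of 7 were of mean 1 or more, 4 higher and 3 lower in HSF V30M, with a summed FPKM of 7767 and 7239 and Mbp the most abundant. Erythrocyte markers were higher in 6 of 6 genes, and summed to 291 (HSF V30M) and 101 (HSF WT), led by Hbb-bs. Neutrophil markers were higher in 5 of 5 genes of mean 1 or more, with 101 and 24.7 summed over these, led by S100a9. Skeletal muscle markers were lower in 5 of 5, with 38.6 and 143, led by Ckm. B cell markers were lower in 4 of 4 of mean 1 or more, with 3.03 and 26.1 summed over these, led by Cd22. Adipocyte markers were lower in 4 of 4, with 1123 and 1699, led by Fabp4. Macrophage markers were lower in 3 of 4, with 60.1 and 84.5, led by Csf1r. Cell cycle genes were lower in 3 of 3 of mean 1 or more, with 4.10 and 5.53 summed over these, led by Top2a, while Ccnb1, under a mean of 1, had 0.89 and 0.233. No marker of these lists was at 0 in either group. The part of these cells in the ratios of the members was not tested, and in whole nerve fewer cells of a type and less RNA per cell cannot be told apart.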

How the data were processed

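The authors deposited 1 table with an FPKM per gene and group, written with decimal commas; per the labels, the submitters' processing notes name STAR, Cufflinks, Cuffdiff and GRCm38, with no versions. Its fold changes, test statistics, p-values and q-values were not used. Genes with the status HIDATA (23) were left out. Members and lists were chosen with earlier results of these data known. Ratios used a pseudocount of 1 and a minimum mean FPKM of 1. No test was made, as each group has 1 value. The fragment model, the window for ANANNA and the measure of near-identity (an alignment identity of at least 90%, or overlapping models) were settled after values had been seen. Fragments were accepted where under 0.1 accidental matches were expected. Named were all Scarna genes above 0, the 10 highest members, the 8 largest rises and falls, members sharing a host, their hosts, and the core proteins; the threshold neighbours and other members were named after values were seen. Annotation was GENCODE M21. A marker of the Schwann cell list and a host gene are not reported here. Calculations were made in Python 3.11.15 with scipy 1.17.1, biopython 1.88, pandas 2.3.3, matplotlib 3.10.9 and numpy 2.4.6. The reading of fragments and the counting of folds were run on simulated data. These were built from whole fragments under the same fragment model, with no shared loci, and from folds without noise. They check the code only, and not the reading of members that share a locus.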

Additional observations from a re-analysis of the deposited data

How the results depend on the processing

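Of 52 alternative values computed, 46 stayed within a factor of 1.5 for a count or within the 95% binomial interval for a median, which is wide with few genes. The medians of Snora, Scarna, Snord, host and protein genes kept their sign under each alternative run, but their size moved. The Snora median was 0.78 as reported and 0.29 for the only 1 whose locus is not shared. The Scarna median went from 0.65 to 0.83 over 2 such members, and to 1.01 with at least 10 fragments. The host median went from -0.11 to -0.06 with a minimum mean of 5 and with the host counted once per member. The number of members higher at a fold of 2 was 22 as reported, 28 with a fold of 1.5, 19 of 43 among members without a near-identical or overlapping member, and 1 of 3 among members whose locus is shared with no other gene, a setting that by construction leaves 3 members. The number lower was 2 as reported. It was 0 of those 3, 1 of those 43, 0 of 42 with at least 10 fragments in the mean of the groups, which was chosen after seeing the data, and 4 with a fold of 1.5. The fragment limit left out the 2 lower members. It kept Snora69, Snora20, Snora41 and the 137-base model of Snora16a, which reached it only through HSF V30M. No conclusion is therefore drawn from the 0 or from the medians at this limit. Protein genes past a fold of 1.5 went from 0 to 2 with a pseudocount of 0.1. The members lost with at least 10 fragments are those whose values rest on few fragments. No paired analysis was possible because libraries were merged into 1 estimate for each group, although the labels number the samples of both groups 1 and 2. No sample was left out in turn, because fragments could be divided by library for only 4 members in HSF V30M and 6 in HSF WT. Depth limits the 11 members with under 10 fragments in a group.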
